A study of Homo sapiens with 10 samples.

Results

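The genes described here encode 10 ligands and enzymes through which a cell can restrain immune cells: CD274, PDCD1LG2, CD276, VTCN1, PVR, NECTIN2, CD47, LGALS9, TNFRSF14 and NT5E. Accessible chromatin had been mapped by ATAC-seq, in which the Tn5 transposase inserts adapters into open DNA, in MDA-MB-231 cells, a human cell line from a breast cancer without hormone receptors or HER2 (triple-negative). The series has 5 ARID1A knockout and 5 control libraries of this line, and ARID1A is a subunit of the SWI/SNF chromatin remodelling complex. How the knockout was made, and whether it is 1 clone, is not given in the sources used here. Peaks were taken as belonging to a gene where the deposited list placed them under its Ensembl identifier or where they lay within 20000 bases of its hg38 span. This gave 80 of the 161934 peaks in the list, and 0 of the 80 fell to more than 1 of the genes. The list covers the whole series and has 0 columns with a value per library, so library depth is unknown and the knockout could not be compared with the control. What follows is where peaks were called at these genes over the series as a whole, with no replicate error and no test. The list does not show which libraries or which genotype gave a peak, so each may come from either genotype or from both.

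T cells carry inhibitory receptors such as PD-1, TIGIT, TIM-3 and BTLA, and macrophages carry SIRP-alpha. When a ligand on another cell engages one of them, the immune cell is held back. Tumour cells can display these ligands, some of them in response to interferon, and antibodies that block the contact are used as cancer therapy. A cell expresses such a gene from a promoter, usually an accessible stretch at the start of transcription, and distal accessible stretches can act as enhancers.

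Promoter sequences come from RefSeq (build GRCh38.p14), which gave a window from 250 bases before to 50 after the start for 9 of the 10 genes, and a pair of windows for CD276. Of these 10 windows, 9 lay wholly under a peak, where 57.0% of the 22132 windows of protein-coding genes did. The exception was CD274, with 246 of 300 bases under its peak. In each sequence below, capitals mark matches on either strand to the consensus of 8 factor families. The searched letters were TGANTCA for AP-1, which 6.15% of all windows hold, and GAAANNGAAA for interferon regulatory factors (IRF), held by 3.17%. They were TTCNNNGAA for STAT factors (6.79%), GGAATG for TEAD (12.2%), and GGGCGG for SP and KLF factors (56.3%). The last were ACGTG for the HIF core (23.1%) and CCGGAA for ETS (21.2%), and the NF-kB consensus was searched by its name (12.7%). A match describes letters and is no measured binding site.

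The windows of CD274 and LGALS9 are shown because they were the ones among the 10 with an IRF match, that of VTCN1 for its AP-1 match, that of TNFRSF14 because its start lies away from the gene's outer boundary, and that of CD47 for its many CpG dinucleotides.
CD274 (chr9:5450292-5450591, plus strand): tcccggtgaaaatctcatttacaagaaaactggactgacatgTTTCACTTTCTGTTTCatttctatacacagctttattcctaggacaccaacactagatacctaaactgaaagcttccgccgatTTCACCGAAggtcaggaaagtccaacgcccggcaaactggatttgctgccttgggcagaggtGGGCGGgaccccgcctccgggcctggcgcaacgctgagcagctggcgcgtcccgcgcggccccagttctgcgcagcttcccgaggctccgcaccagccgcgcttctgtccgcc
LGALS9 (chr17:27630938-27631237, plus strand): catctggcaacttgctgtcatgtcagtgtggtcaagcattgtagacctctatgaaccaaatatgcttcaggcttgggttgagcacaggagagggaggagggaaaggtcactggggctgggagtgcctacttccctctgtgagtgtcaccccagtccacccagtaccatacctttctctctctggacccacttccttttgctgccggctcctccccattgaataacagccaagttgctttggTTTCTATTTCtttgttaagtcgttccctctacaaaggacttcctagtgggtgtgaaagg
VTCN1 (chr1:117210878-117211177, minus strand): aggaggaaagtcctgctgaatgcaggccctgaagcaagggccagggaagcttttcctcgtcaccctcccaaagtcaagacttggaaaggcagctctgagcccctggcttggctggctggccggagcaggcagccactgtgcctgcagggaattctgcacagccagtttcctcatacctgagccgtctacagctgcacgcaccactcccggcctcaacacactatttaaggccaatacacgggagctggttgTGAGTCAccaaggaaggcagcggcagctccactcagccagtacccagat
TNFRSF14 (chr1:2556121-2556420, plus strand): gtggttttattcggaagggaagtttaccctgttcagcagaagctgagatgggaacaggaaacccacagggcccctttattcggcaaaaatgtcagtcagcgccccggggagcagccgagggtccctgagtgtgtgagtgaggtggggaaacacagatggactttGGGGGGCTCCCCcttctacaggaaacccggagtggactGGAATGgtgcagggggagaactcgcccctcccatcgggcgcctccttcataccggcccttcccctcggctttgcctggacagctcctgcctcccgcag
CD47 (chr3:108090982-108091281, minus strand): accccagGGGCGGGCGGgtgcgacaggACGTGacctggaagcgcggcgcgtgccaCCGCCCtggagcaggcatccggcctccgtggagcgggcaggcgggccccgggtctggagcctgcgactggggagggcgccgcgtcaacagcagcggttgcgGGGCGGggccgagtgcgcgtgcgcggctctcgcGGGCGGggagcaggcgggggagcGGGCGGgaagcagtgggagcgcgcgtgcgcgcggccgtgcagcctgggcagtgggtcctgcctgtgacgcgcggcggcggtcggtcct

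The CD274 window held 2 IRF matches that overlap each other, at -208 to -199 and -202 to -193 from the start, where +1 is the first transcribed base. Both sit at the upstream edge of the peak: the former had 0 of its 10 bases under it and the latter 4. A STAT match at -125 to -117 and an SP and KLF match at -63 to -58 lay under the peak. In LGALS9 the IRF match ran from -9 to 1, over the start itself, and was the single match of that window. The AP-1 match of VTCN1, at 2 to 8, was also the single match there. TNFRSF14 held 3 NF-kB matches shifted by 1 base each, between -86 and -75, and a TEAD match at -48 to -43. In CD47 the window held 6 SP and KLF matches, some of them overlapping, and 1 HIF core at -223 to -219. Among the windows not printed, PVR held a TEAD match, NECTIN2 held 3 SP and KLF matches and NT5E held 2, while the windows of CD276 held 8 and 5 matches. In the former 7 were to SP and KLF factors and the other to ETS, and in the latter 2 were to SP and KLF factors and the others to NF-kB, HIF core and ETS, 1 each. The windows also differed in CpG content: 45 in CD47, 37 in NT5E, 22 in CD274, 12 in TNFRSF14, 7 in VTCN1 and 2 in LGALS9. The median over all windows was 21, or 26 among windows touched by a peak and 6 among those that were not. VTCN1 and LGALS9 thus had a peak over starts with few CpG, where 76.1% and 94.0% of windows held at least as many.

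All 10 genes had a start peak, meaning a peak within 1000 bases of the outermost start, taken as the outer edge of the gene's RefSeq span. Among the 18748 protein-coding genes with a known strand 74.1% had one, a share over genes expressed or not. Of the 80 peaks, 10 were start peaks, 31 lay over the genes beyond the start, 14 upstream and 25 downstream. By the list's own annotation 49 were promoter (at most 3000 bases from any transcript start), 17 intron, 10 distal intergenic, 3 in 3' untranslated regions and 1 exon. Intron numbers given below are those of the transcript that the list used. That is a promoter share of 61.3% (Wilson 95% interval 50.3 to 71.2, counting error over peaks), against 30.4% of all peaks in the list. The windows used here centre on genes. Around all protein-coding genes, cut out in the same way, 38.2% of peaks were promoter, and the median gene had 50% against 61.9% for the median of the 10 genes. The list tied 45 of the 80 peaks to these genes and 35 to other genes whose start is closer. Of the 49 promoter peaks 25 were listed under these genes, and among the 45 the promoter share was 55.6%.

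**Figure D1:**
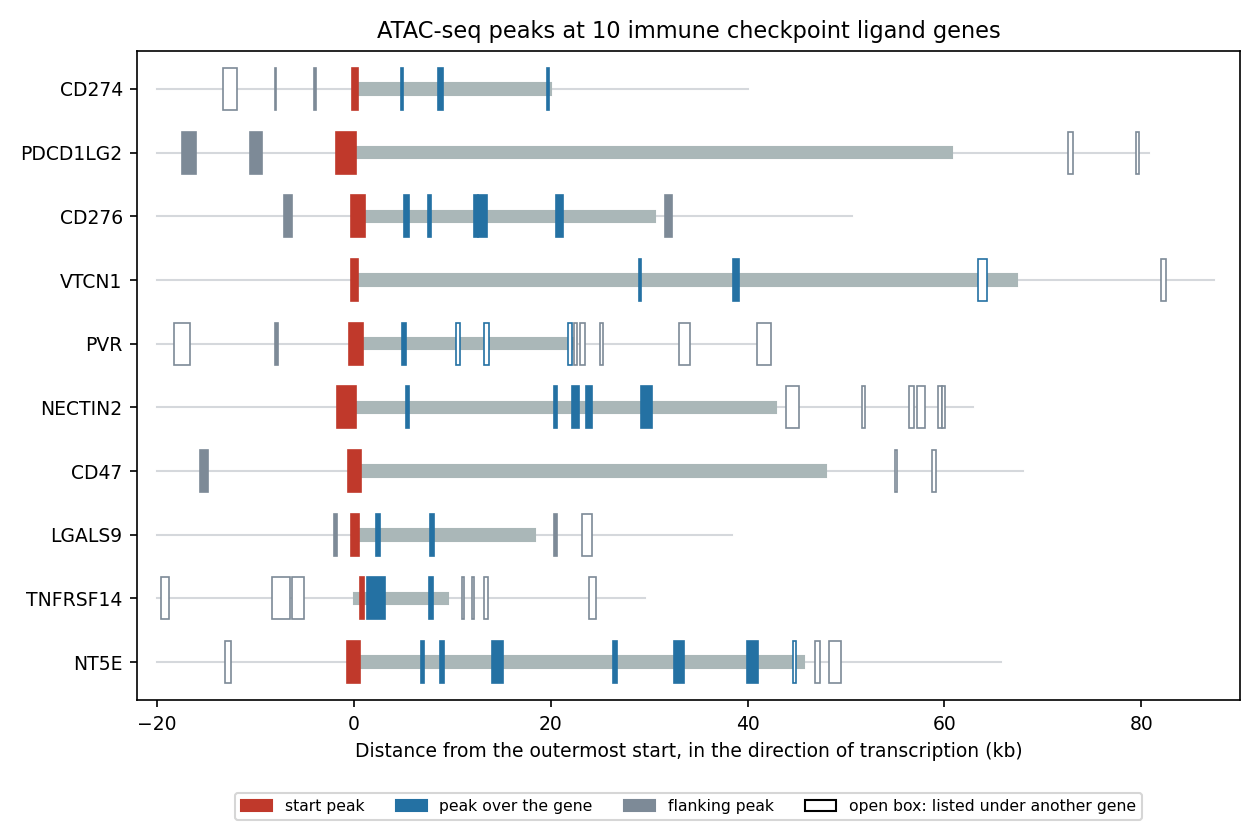
Peaks at each gene by distance from its outermost start in kb, with transcription running to the right. Grey bars are the gene bodies, thin lines the 20 kb flanks, red boxes start peaks, blue boxes other peaks over the gene and grey boxes flanking peaks, drawn to scale; boxes with a white centre are listed under another gene. PDCD1LG2 and CD47 have no box over the gene beyond the start, and NT5E has 7.

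CD274 encodes PD-L1, the main ligand of PD-1, and spans 20013 bases on chromosome 9 (5450542 to 5470554, plus strand). Its start peak, at 5450346 to 5450970, was 625 bases long and covered the start. This is short, since 90.2% of genes with a start peak had one at least as long. Further peaks over the gene were of 166 bases (5455327 to 5455492), 471 bases (5459105 to 5459575) and 245 bases (5470143 to 5470387). The first pair lay 622 and 1721 bases from starts of other annotated transcripts and so count as promoter, and the last lay in the 3' untranslated region. Upstream, a peak of 203 bases lay 3.88 kb before the start and was listed under CD274. Another of 125 bases at 7.89 kb, the shortest of the 80, was listed under PLGRKT, whose own start carried a peak of 1442 bases 11.8 kb before CD274. The start peak was the longest of the 5 peaks listed under CD274, so all of them were shorter than the peak at the neighbour's start.

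PDCD1LG2 encodes PD-L2, the other ligand of PD-1, and lies 40.0 kb beyond the end of CD274 in the same direction (5510531 to 5571282, 60.8 kb). Its accessible DNA was arranged differently. The start peak, at 5508716 to 5510715, was 2000 bases long, the longest of the 80, and 8.25% of genes with a start peak had one at least as long. It reached 1815 bases upstream and 184 downstream of the start, and 0.747% of the 12182 genes with a peak over the start had one that reached as far upstream. The body of the gene held 0 further peaks, and the next lay 72.4 kb on, past its end. Between the PD-1 ligand genes, after 22.7 kb without a peak, lay a pair of long intergenic peaks, of 1456 bases (5493085 to 5494540) and 1279 bases (5499939 to 5501217). They were 16.0 and 9.31 kb before the PDCD1LG2 start and 42.5 and 49.4 kb after that of CD274, and the list placed both under PDCD1LG2 by distance. Among all 47897 distal intergenic peaks, with a median of 506 bases, 2.12% and 4.15% were at least as long. The list holds no measure of contact, so which gene these peaks act on, if any, was not tested.

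CD276 encodes B7-H3, a B7 family protein found on many solid tumours (chromosome 15, 73683944 to 73714514, plus strand, 30.6 kb). All 8 of its peaks were listed under the gene itself, which held for none of the other 9 genes. The start peak of 1480 bases (73683642 to 73685121) reached 302 bases upstream and 1177 downstream, over both RefSeq start windows. As far downstream reached 13.1% of peaks over starts. The list annotated 3 peaks, of 451, 275 and 309 bases, as intron 1 of 2 in an annotated transcript. The last was separated by 2 bases from a peak of 978 bases (73696518 to 73697495), which counts as promoter at 2145 bases from a listed start. Another of 763 bases (73704482 to 73705244) lay 285 bases from an internal transcript start. Flanking peaks of 779 and 761 bases lay 6.3 kb before the start (73676861 to 73677639) and 0.996 kb past the end (73715510 to 73716270).

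VTCN1 encodes B7-H4, another inhibitory B7 protein (chromosome 1, 117143587 to 117210927, minus strand). It is the longest of the genes, at 67.3 kb, and among the sparsest. The start peak of 698 bases (117210491 to 117211188) covered the start, and 88.0% of genes with one had a longer or equal peak. The next peak, of 223 bases in intron 1, lay 28.9 kb into the gene. It was followed by one of 539 bases (117171845 to 117172383) at 883 bases from the start of a shorter transcript. A peak of 972 bases in intron 5 (117146569 to 117147540) was the longest at the gene, and the list placed it under the pseudogene RPS15AP9. The first 28.5 kb after the start peak held none.

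PVR (CD155) and NECTIN2 (CD112) encode nectin-type adhesion proteins that bind the inhibitory receptor TIGIT and the activating receptor CD226. Both lie on chromosome 19, and each window held 12 peaks, the most among the 10 genes. PVR (44643910 to 44666162, plus strand, 22.3 kb) had a start peak of 1426 bases (44643433 to 44644858) and peaks of 401, 368, 538 and 403 bases over the gene. The list placed 3 of its 12 peaks under PVR and 9 under others, among them IGSF23, CEACAM19 and the microRNA gene MIR4531 inside PVR. Around the 3' end, 4 short peaks of 268 to 543 bases stood within 3.57 kb (44665673 to 44669239). The longest peak of the window, 1629 bases (44625632 to 44627260), lay 16.6 kb before the start and was listed under IGSF23. A peak of 371 bases 7.67 kb before the start lay in an intron of IGSF23 and was listed under PVR.

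NECTIN2 (44846297 to 44889223, plus strand, 42.9 kb) had a start peak of 1894 bases (44844627 to 44846520). Like that of PDCD1LG2 it extended mostly upstream, by 1670 bases against 223 downstream, and 1.15% of peaks over starts reached as far. Intron 1 held a peak of 352 bases and intron 2 one of 329 bases. Past 20 kb into the gene, 3 more peaks of 718, 640 and 1090 bases counted as promoter because shorter transcripts start nearby, the longest at 44875456 to 44876545. The other 6 peaks of the window lay beyond the 3' end, from 1.01 kb on, and all were listed under neighbouring genes.

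CD47 encodes the surface protein that binds SIRP-alpha on macrophages and restrains phagocytosis (chromosome 3, 108043091 to 108091031, minus strand, 47.9 kb). Its 4 peaks gave 0.455 per 10 kb of the gene and its 20 kb flanks, the lowest of the 10 genes by that measure. By bases under peaks VTCN1 was lower (272 against 309 per 10 kb), and over the gene span alone PDCD1LG2 was (0.165 against 0.209 peaks per 10 kb). The gene itself was touched by 1 peak. It was the start peak of 1312 bases (108090308 to 108091619), close to the median of 1257 bases for all genes with a start peak. A distal peak of 789 bases (108105867 to 108106655) lay 14.8 kb upstream and was listed under CD47. Inside the gene no peak followed the start peak, and the next, of 216 bases, came after 54.2 kb and past the 3' end.

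LGALS9 encodes galectin-9, a sugar-binding protein that can engage TIM-3 (chromosome 17, 27631188 to 27649560, plus strand, 18.4 kb). The start peak was 774 bases long (27630901 to 27631674), and 85.3% of start peaks were at least as long. A peak of 315 bases (27629181 to 27629495) lay 1.69 kb upstream, 303 bases from the start of a longer Ensembl transcript. Over the gene there were peaks of 420 and 366 bases. The former lay 2235 bases past an annotated start close to the gene's outermost one, and the latter 1077 bases before an internal start. Past the 3' end followed one of 340 bases listed under LGALS9 and one of 972 bases in an exon of a neighbour. LGALS9 has close gene copies, and how reads that fit several places were handled is not given in the sources used here.

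TNFRSF14 encodes HVEM, a receptor of the TNF family that acts as the ligand of BTLA and CD160 (chromosome 1, 2554234 to 2563829, plus strand). At 9.60 kb it is the shortest of the genes. Its outermost start was not covered: the nearest peak, of 459 bases (2554851 to 2555309), began 617 bases inside. A peak of 1887 bases (2555553 to 2557439) followed 243 bases later and covered the RefSeq start window printed above, as well as another annotated transcript start. By the outermost start alone TNFRSF14 would be read as the member with the shortest start peak. Of all promoter peaks in the list, 3.96% were at least as long as the 1887-base peak just inside. That class also takes in peaks away from a start, so the share cannot be set beside those of start peaks above. Among genes with a start peak, 11.2% had one at least as long as the NECTIN2 start peak of 1894 bases. The last peak over TNFRSF14, of 422 bases, lay 102 bases from an internal start. The window also held peaks of 1796 and 1162 bases 6.53 and 5.1 kb upstream, listed under a neighbouring transcript that has no paired symbol here.

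NT5E encodes CD73, the surface enzyme that turns AMP into adenosine, which dampens T cells (chromosome 6, 85450083 to 85495784, plus strand, 45.7 kb). It had the most peaks over the gene itself, 8 in all, spread from start to end. The start peak of 1343 bases (85449365 to 85450707) reached 718 bases upstream and 624 downstream. Intron 1 held peaks of 345, 421 and 1098 bases and intron 3 one of 403 bases. Further on stood peaks of 1066 bases (85482570 to 85483635) and 1118 bases (85490077 to 85491194), the latter annotated as 3' untranslated region, and one of 276 bases near the end. Of all intron peaks 7.26% were as long as the 1098-base peak at 85464124 to 85465221. Past the 3' end a peak of 1191 bases (85498337 to 85499527) covered the start of a transcript annotated on the minus strand.

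**Figure D2:**
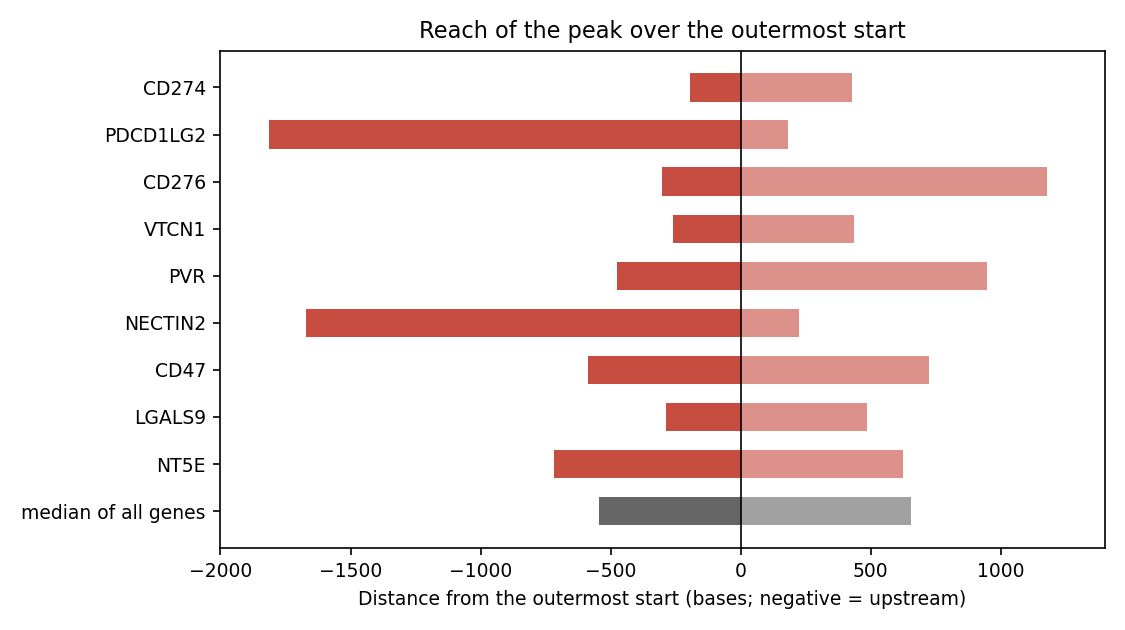
Reach of the peak over the outermost RefSeq start, in bases upstream (dark) and downstream (light). Shown are the 9 genes whose RefSeq start is covered and the median over the 12182 genes that have such a peak. PDCD1LG2 and NECTIN2 reach 1815 and 1670 bases upstream, and CD276 reaches 1177 bases downstream.

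The starts fell into different shapes. The outermost RefSeq start was covered in 9 of the 10 genes. For LGALS9 and CD47 the list also held Ensembl transcripts that start further out, at points not under the start peak. The median covering peak among all genes reached 546 bases upstream and 656 downstream. CD47 and NT5E were near these values. CD274, VTCN1 and LGALS9 were short on both sides, with 196, 261 and 287 bases upstream and 428, 436 and 486 downstream. The longest start peaks of the genes had a median of 1327.5 bases, against 1257 bases over all genes with one, and 6 of 10 exceeded that value. The median was thus near that of all genes with a start peak, while single members spread from 459 to 2000 bases. The 459 bases are the TNFRSF14 peak that does not cover the outermost start, and its 1887-base peak further inside was not counted. Among the 9 genes with a covered start the shortest was that of CD274, at 625 bases.

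**Figure D3:**
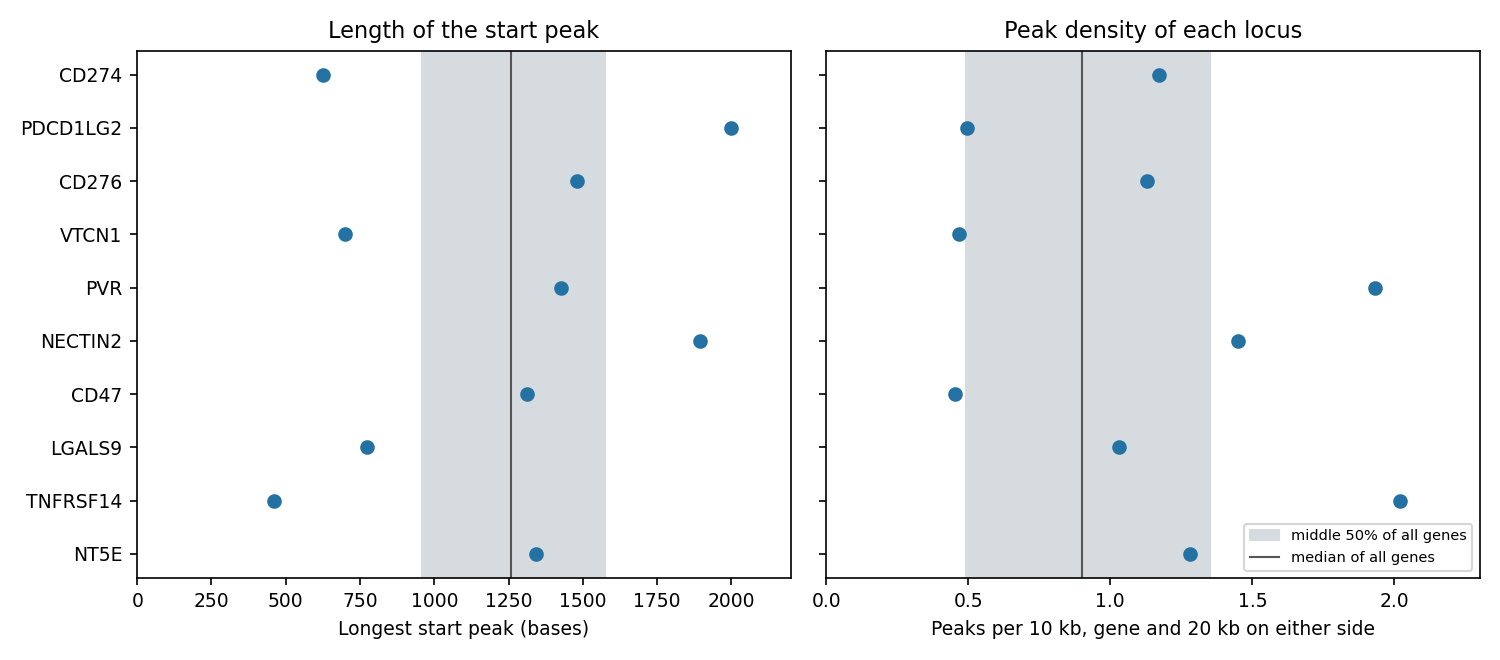
Left, longest start peak of each gene in bases; right, peaks per 10 kb over the gene and 20 kb on either side. Points are genes, the grey band holds the middle 50% of protein-coding genes and the line is their median. On the left, band and line cover only the genes with a start peak. The left point of TNFRSF14 is its 459-base peak, not the 1887-base peak further inside. TNFRSF14 and PVR have the densest loci, at 2.02 and 1.93, and CD47, VTCN1 and PDCD1LG2 the sparsest.

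Peak density, counted over each gene and 20 kb on either side, ordered the loci in another way. TNFRSF14 held 2.02 peaks per 10 kb and PVR 1.93, which 4.82% and 6.22% of protein-coding genes reached. Many of these peaks were listed under other genes: 7 of the 10 at TNFRSF14 and 9 of the 12 at PVR. At PVR they include the peaks of 368, 538 and 403 bases that lie over the gene itself. Over the gene span alone the values were 3.13 and 2.25 per 10 kb, which 7.99% and 15.3% of genes reached. NECTIN2 held 1.45, NT5E 1.28, CD274 1.17, CD276 1.13 and LGALS9 1.03. PDCD1LG2 with 0.496, VTCN1 with 0.466 and CD47 with 0.455 lay below the median of 0.899, and 78.2% of genes were at least as dense as CD47. In all 7 of 10 loci were denser than the median gene. Counted as bases under peaks the number was 5 of 10, since the peaks at CD274 and LGALS9 are short: each had 546 bases per 10 kb, against a median of 633. Copy number was not measured in this aneuploid line, and its part in these densities was not tested.

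PDCD1LG2 and CD47 shared a bare gene body. Of the 5 genes of 40000 bases or more, these 2 had no peak over the gene beyond the start window, whereas VTCN1 had 3, NECTIN2 5 and NT5E 7. Among all 7211 protein-coding genes of that length 5.99% had none, and the median gene held 6. Genes of that class are often longer, however, and between 40000 and 70000 bases, which takes in all 5, the share was 10.9%. The length limits were chosen after the values were seen.

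Start peaks were also counted in 3 small lists of related genes, grouped by role, and differences between the lists were not tested. The regulators of the ligands had one in 14 of 14 cases, against the 74.1% of all genes. They include CMTM4 (1675 bases) and CMTM6 (1038 bases), which stabilise PD-L1 at the surface, and the interferon signalling kinases JAK1 (2198 bases) and JAK2 (1425 bases). Other ligands and enzymes had one in 14 of 17 (82.4%), among them CD80 (605 bases), HHLA2 (261 bases), VSIR (1242 bases) and NECTIN1 (2038 bases). CD86, ICOSLG and CD200 had none. Of the receptors and partners, mostly proteins of lymphocytes, 4 of 12 had one (33.3%), or 5 of 12 when any annotated start was accepted. PDCD1, the gene of PD-1, had a peak of 166 bases, SIRPA one of 1369 bases, CD160 one of 1321 bases and LAG3 one of 716 bases. TIGIT, CD226, CD96 and BTLA had none at the outermost start, and the state of ADORA2A could not be determined. A start peak can belong to a neighbouring gene, which was not tested. JAK2, which lies on the same arm as CD274, had 1 peak over its 146 kb, the one at its start, and a density of 0.0539.

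**Figure D4:**
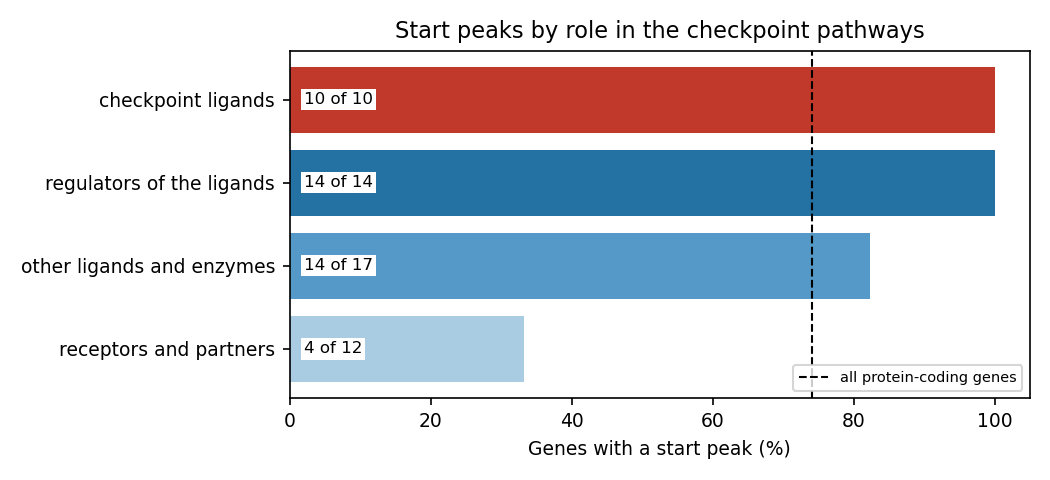
Share of genes with a start peak in percent, for the checkpoint ligands and 3 lists of related genes, with the count written in each bar; the dashed line is the share of all protein-coding genes. The receptors, with 4 of 12, are the list below the line.

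The identity of the cells was looked at through start peaks of marker genes. Markers of mesenchymal MDA-MB-231 cells, such as VIM (1551 bases), CD44 and EGFR, had one in 7 of 8 cases, set beside 74.1% of all genes. Markers of T and NK cells had one in 2 of 6, B cell markers in 0 of 1 with a known state and endothelial markers in 0 of 2. Luminal markers had one in 6 of 7 and myeloid markers in 4 of 4. Among the luminal markers KRT8 and KRT18, whose spans overlap, each had one of 1436 bases, so the same peak may be counted for both. When any annotated start was accepted, these counts became 8 of 8 for MDA-MB-231, 3 of 6 for T and NK cell, 1 of 2 for endothelial and 7 of 7 for luminal markers, with the others as before, set beside 80.4% of all genes. Thus a start peak by itself did not separate the cell types. It likewise does not show that any of the 10 ligand genes is expressed, which was not measured.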

How the data were processed

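Per the submitters' processing notes, reads of the 10 ATAC-seq libraries (5 ARID1A knockout, 5 control) went through Bowtie2 2.3.5.1 and then MACS2 2.2.6 for peaks, on hg38. Per the file headers, the deposited list holds the coordinates, length, class and closest transcript of each peak, with the distance to that transcript's start. The threshold for peaks, any merging, the treatment of duplicates and the annotation, not given in the sources used here, set the number and edges of peaks.

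Symbols and spans came from a RefSeq table of GRCh38.p14 with 19974 protein-coding genes on chromosomes 1 to 22 and X. Ensembl identifiers were paired by position as mutual best matches sharing 0.5 or more of their union (14944 genes, all 10 members). Strand came from the promoter table (15813 genes) or else from the list (2935). Where both gave one, 11963 of 12009 were the same. Genes with no strand were left out of the reference share.

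The members and lists were chosen with earlier results of these data known. All members are named, with their start, longest, intron and farthest listed flanking peaks, and related genes in list order. Some neighbours are not reported here. The planned comparison of knockout and control needed a value per library and was not run. Counting of peaks in a window was checked on simulated intervals, where 1000 of 1000 windows matched a direct count. Python 3.11.15, numpy 2.4.6, pandas 2.3.3 and scipy 1.17.1 were used.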

Additional observations from a re-analysis of the deposited data

How the results depend on the processing

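No paired analysis was possible because values of single libraries are not part of the list, and leaving out replicates was not possible for the same reason. The 10 members with a start peak became 9 with a window of 500 bases or with peaks of the median length or longer, TNFRSF14 being the exception, and stayed 10 with 3000 bases or any annotated start. The share of all protein-coding genes was 70.6%, 68.5%, 82.1% and 80.4% in these settings, 73.4% with strand from the promoter table alone and 69.5% with genes of unknown strand counted as having none. The 80 member peaks were 45 when listed under the member, 65 with flanks of 10000 bases, 139 with 50000 bases and 39 without peaks under the median length. Their promoter share of 61.3% fell to 35.0% within 1000 bases of a start, where all peaks had 19.8%, and was 67.9% in bases (all peaks 37.8%). Members denser than the median gene stayed 7 over the span alone and with 50000 bases. The 2 long members with bare bodies stayed 2 at limits of 20000 and 45000 bases, where 10.9% and 5.35% of genes had none. The strand, length and gene window settings were added after the data were examined. Depth limits are unknown.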
